A study of Mus musculus with 2 samples.

Results

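The aminoacyl-tRNA synthetases and the genes of the amino acid stress response were examined in mouse ureter explants exposed to an activator of WNT signaling. The members were chosen by symbol, by a rule that uses no measured value. They comprise the genes on the array whose symbol is a letter followed by ars, with or without a digit, as in most tRNA synthetases. Synthetase genes with symbols of another form were not taken, except Eprs, Farsa and Farsb. Added were 11 genes of amino acid synthesis and of the stress response that is governed by the transcription factor ATF4. This gave 48 of the 29864 genes on the array, measured by 63 of 39429 probes. Of these, 20 encode synthetases of the cytosol, 17 encode synthetases of the mitochondria (suffix 2 in the symbol), 6 are enzymes of serine, asparagine and one-carbon metabolism, and 5 are regulators or effectors of the stress response. Gars and Kars, whose products serve both compartments, were counted with the cytosolic enzymes.

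Ureters were taken from wildtype NMRI mouse embryos at E12.5 and kept as explants on transwell membranes for 18 h, in serum-free medium that held either 10 µM BIO (6-bromoindirubin-3-oxime) or its solvent DMSO as the control. BIO inhibits the kinase GSK3, which releases β-catenin from degradation and thereby switches on canonical WNT signaling, and GSK3 has many further substrates. Control and BIO RNA, each from a pool of ureters whose sex had not been determined, were hybridised together on an array, and there were 2 such arrays with different pools. The BIO RNA carried the red dye in replicate 1 and the green dye in replicate 2, and all ratios below are BIO over control. Explants of this kind contain the epithelium and mesenchyme of the ureter and also vessels, blood cells and nerves, and in RNA of whole explants fewer cells of a type and less RNA per cell cannot be told apart.

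A tRNA synthetase joins an amino acid to its tRNA and so sets the supply of charged tRNA for translation. Most amino acids have separate nuclear genes for the enzyme of the cytosol and for that of the mitochondria. When charged tRNA runs short, the kinase GCN2 phosphorylates the initiation factor eIF2α, and the kinase PERK does the same when unfolded protein accumulates in the endoplasmic reticulum. General translation then declines while ATF4 is translated more, and ATF4 activates genes of amino acid uptake, of serine and asparagine synthesis and of many cytosolic synthetases, but few of the mitochondrial ones. ATF4 activity is thus set largely by translation of its mRNA, which arrays do not measure.

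ATF4 binds, with a partner of the C/EBP family, to elements with the core TGATGNAA. Promoter windows of RefSeq (GRCm38.p6), running from 250 bases before to 50 bases after the start of transcription, were matched to 38 of the 48 genes, with 40 windows in all. The core was found on either strand in 8 of the 40 windows (20.0%), those of Aars, Asns, Chac1, Gars, Iars, Tars, Trib3 and Yars, against 3.97% of all 32851 windows of that length. They are shown here because ATF4 is the factor that links these genes. In capitals are the core, given as its reverse complement where it lies on the opposite strand, and in Aars also the E-box CACGTG. All stretches are given 5′ to 3′ on the strand of the gene. The following 5 lie before the start.
Chac1, chr2:119351032-119351112, plus strand: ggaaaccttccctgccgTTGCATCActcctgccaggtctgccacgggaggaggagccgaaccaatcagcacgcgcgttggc
Asns, chr6:7693210-7693299, minus strand: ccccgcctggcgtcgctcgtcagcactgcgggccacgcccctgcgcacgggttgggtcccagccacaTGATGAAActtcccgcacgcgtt
Aars, chr8:111033682-111033752, plus strand: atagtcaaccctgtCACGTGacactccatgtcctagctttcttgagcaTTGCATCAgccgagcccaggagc
Gars, chr6:55037911-55038000, plus strand: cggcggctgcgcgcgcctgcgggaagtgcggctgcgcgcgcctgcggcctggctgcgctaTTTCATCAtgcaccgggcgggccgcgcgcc
Tars, chr15:11399659-11399748, minus strand: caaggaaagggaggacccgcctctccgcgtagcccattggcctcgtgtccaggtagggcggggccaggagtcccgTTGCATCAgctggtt

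Aars held a second core just after the start of transcription, which is not shown. In 3 further genes the core lay just after the start, and 30 bases around it are given for each, which in Iars and Yars begin shortly before the start.
Trib3, chr2:152344031-152344060, minus strand: agattagctcaggtTTACATCAgccgggcg
Iars, chr13:49682129-49682158, plus strand: tgtcagtaTTGCATCAcctccagacgcgga
Yars, chr4:129189898-129189927, plus strand: agctcagcTGATGCAAcccgacgggactag

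The E-box CACGTG was present in 5 of the 40 windows, those of Aars, Ears2, Farsb, Iars and Tars, and in 7.15% of all windows. It did not overlap the ATF4 core in the windows that held both. CTTTGAT, the core bound by the TCF/LEF factors of the WNT pathway, was found in 0 of the 40 windows and in 3.73% of all windows. Psat1, the member with the largest increase, held none of these motifs in its window, of which the 120 bases before the start read as follows.
Psat1, chr19:15924623-15924742, minus strand: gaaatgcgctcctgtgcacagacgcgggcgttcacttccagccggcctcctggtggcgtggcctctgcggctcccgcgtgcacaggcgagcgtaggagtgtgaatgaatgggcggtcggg

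All 48 genes were well above background in both channels of both arrays, and all 63 probes were tested. Over the whole array, between 70.1% and 80.9% of biological spots passed that limit in a given channel, and 21574 genes were tested. At a limma adjusted p under 0.05, 23.9% of them were called changed, 9.13% with BIO higher and 14.8% with BIO lower. The standard error of the mean log2 ratio had a median of 0.11, and the smallest mean log2 ratio that was called anywhere on the array had a size of 0.35. The markers of the tissue were present. Those of the ureteric epithelium and those of the mesenchyme had a lower sum with BIO, though 5 of 10 and 4 of 10 of them were not called, as described further below.

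Of the 48 genes, 5 were called (10.4%). Psat1 and Vars had risen, and Chac1, Trib3 and Mars2 had fallen. By probe, 5 of the 63 had risen and 3 had fallen, against 23.2% of all probes tested that were called in either direction. The other 43 had mean log2 ratios of 0.37 or less in size. The median over all 48 genes was 0.13, against -0.01 over all genes tested, while the median size of the ratio, irrespective of its sign, was 0.21 for these genes and 0.19 for all genes tested. The mean ratio was above 0 for 34 of the 48 genes, and for 10494 of the 21574 genes tested. On replicate 2, with BIO in green, 33 of the 48 genes had a higher ratio than on replicate 1. Of the 21574 genes tested 12638 did. The medians of the 48 genes were 0.07 on replicate 1 and 0.20 on replicate 2. Over all genes tested the medians of the arrays were -0.03 and 0.00. The calls depended on how the arrays were processed. With Feature Extraction's own processed signals 1 member was called, where 8.91% of all genes were, with median centering in place of loess 4 (12.8%), and with the mean of all probes of a gene 7 (26.2%). In the score table that the authors deposited, whose values are rounded, 7 (15.1%) were called.

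**Figure D1:**
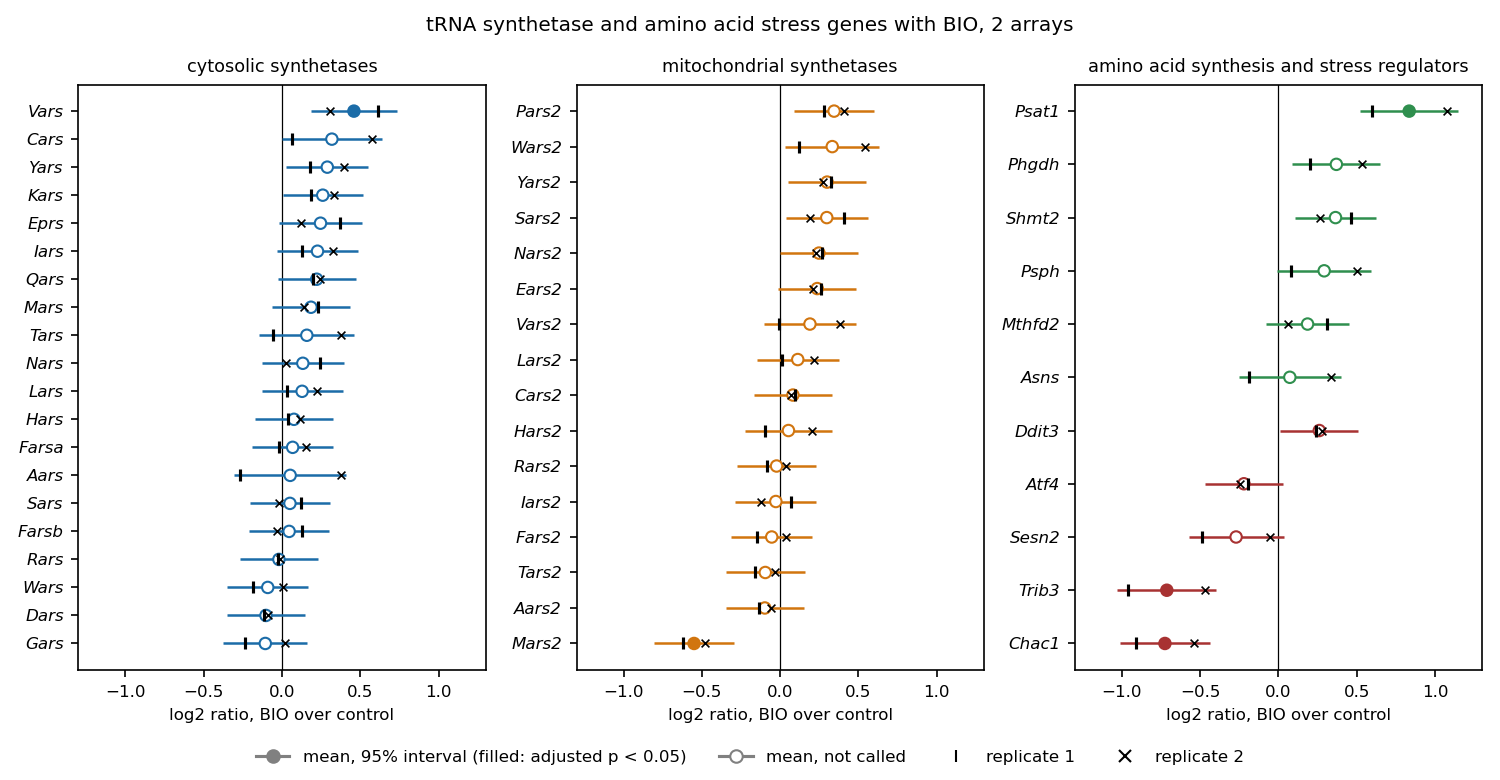
Log2 ratio of BIO over control for 47 of the 48 genes, by group. Circles are means of the 2 arrays with limma 95% intervals, filled where the adjusted p was under 0.05, with the bar and the cross giving replicates 1 and 2. Psat1 and Vars lie to the right, Chac1, Trib3 and Mars2 to the left, and most synthetases lie between 0 and 0.35 with intervals that include 0.

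Among the enzymes of amino acid synthesis, the pathway that makes serine from a glycolytic intermediate stood highest. Its steps are catalysed in turn by PHGDH, PSAT1 and PSPH, and SHMT2 and MTHFD2 then pass the carbon of serine to folates in mitochondria. All 6 genes of the group had a mean ratio above 0, with a median of 0.33. Of them 1 was called (16.7%, against 23.9% of all genes tested).

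Psat1, phosphoserine aminotransferase, went from a normalized intensity of 50274 in the control channel to 76028 in the BIO channel of replicate 1, and from 34048 to 71654 in replicate 2. BIO was thus above control on each array. The mean log2 ratio was 0.84 ± 0.14 (SE, n = 2 arrays, 1.78-fold), with log2 ratios of 0.60 and 1.07 and a limma adjusted p of 0.00357. The probe lies at chr19:15979622-15979681 of mm9. A second, dimmer Psat1 probe gave log2 ratios of 0.84 and 0.91, so the spread between the arrays was smaller there, and it was called as well (limma adjusted p = 0.000943). Psat1 kept its call with Feature Extraction's own processed signals and with median centering, though not in the deposited score table (limma adjusted p = 0.16).

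Phgdh, whose enzyme opens the serine pathway, and Shmt2 came next in size but missed the threshold. Phgdh went from 25191 to 29005 in replicate 1 and from 18152 to 26335 in replicate 2, with a mean log2 ratio of 0.37 ± 0.12 (SE, n = 2) and a limma adjusted p of 0.0628. Shmt2 went from 11935 to 16442 and from 10089 to 12140, with a mean log2 ratio of 0.36 ± 0.11 (SE, n = 2) and a limma adjusted p of 0.0505. Both were higher with BIO on each array. The 2 dimmer probes of Phgdh, which gave mean log2 ratios of 0.36 and 0.38, were called (limma adjusted p = 0.0439 and 0.0404). With the mean of all probes in place of the brightest, Phgdh and Shmt2 were both called. Shmt2 has only 1 probe, so its ratio of 0.36 was the same there. Its limma adjusted p became 0.0374 through the refit over genes in place of probes. Psph had a mean log2 ratio of 0.29, with 0.08 on replicate 1 and 0.50 on replicate 2, and Mthfd2 had one of 0.19, with 0.31 and 0.06. Asns, asparagine synthetase and a classical ATF4 target, went from 22599 down to 19839 in replicate 1 and from 17759 up to 22380 in replicate 2. Its mean log2 ratio of 0.07 ± 0.14 (SE, n = 2, limma adjusted p = 0.763) therefore joins arrays of opposite sign.

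**Figure D2:**
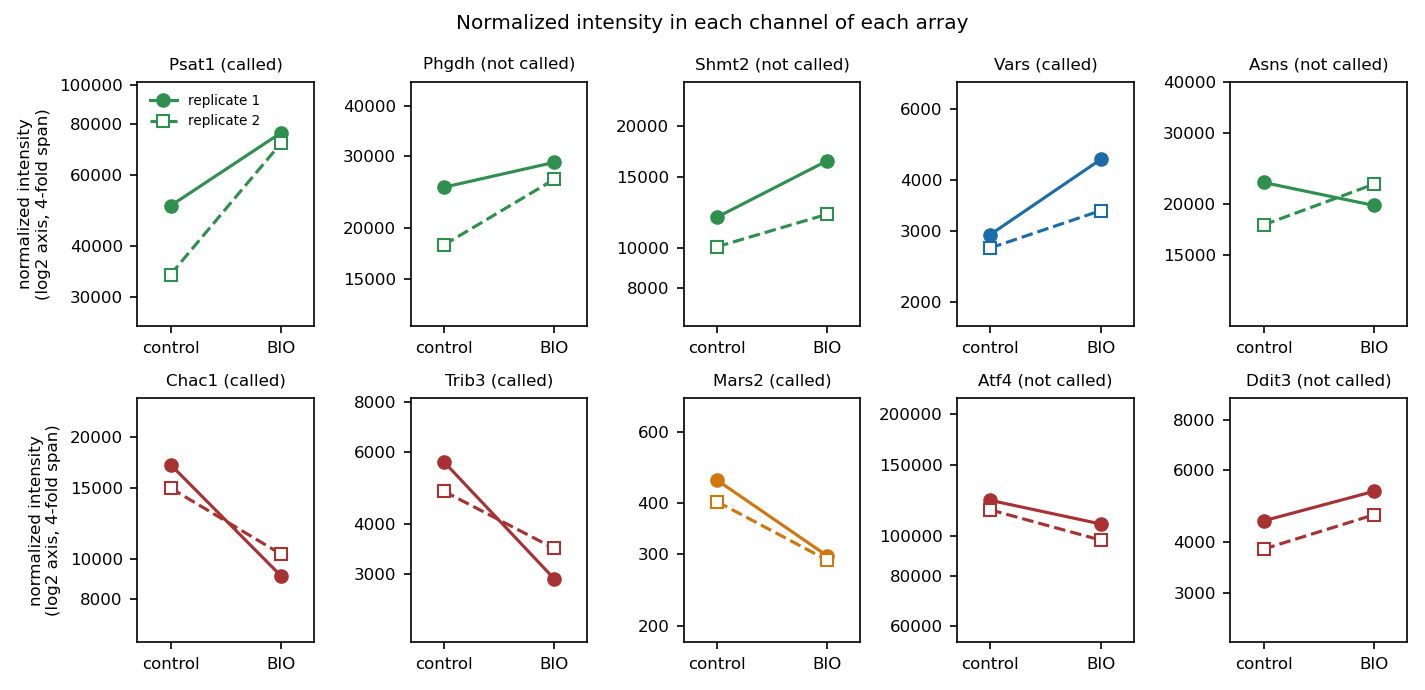
Normalized intensity in the control and BIO channel of replicate 1 (filled circles) and replicate 2 (open squares) for 10 genes, on log2 axes that each span 4-fold. Psat1, Phgdh, Shmt2, Vars and Ddit3 are higher and Chac1, Trib3, Mars2 and Atf4 lower with BIO on both arrays, while the lines of Asns cross.

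Of the 5 stress regulators, 4 had a mean ratio below 0 and 1 had one above 0. Of the 5, 2 were called (40.0%, against 23.9% of all genes tested). Chac1 and Trib3 fell, Sesn2 and Atf4 had ratios below 0 and Ddit3 had one above 0, and the sign was the same on both arrays for all 5 genes. Chac1 encodes an enzyme that degrades glutathione and is among the genes most strongly induced by ATF4. Its normalized intensity went from 17112 to 9109.8 in replicate 1 and from 14984 to 10307 in replicate 2. The mean log2 ratio was -0.72 ± 0.13 (SE, n = 2, limma adjusted p = 0.00474), which is 0.605-fold of the control. The probe lies at chr2:119179990-119180049 of mm9.

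Trib3, a pseudokinase that is induced by ATF4 and CHOP and restrains ATF4 in turn, behaved alike. It went from 5688 to 2929 in replicate 1 and from 4811 to 3479 in replicate 2. The mean log2 ratio was -0.71 ± 0.14 (SE, n = 2, limma adjusted p = 0.00775), or 0.61-fold of the control, at a probe at chr2:152163161-152163220 of mm9. For both genes BIO lay below control on each array. The decrease was larger on replicate 1, with log2 ratios of -0.91 and -0.96, than on replicate 2, with -0.54 and -0.47. With the processed signals the mean ratios were -0.72 for Chac1 and -0.69 for Trib3, but neither was called (limma adjusted p = 0.075 and 0.0748). In the score table neither was called (limma adjusted p = 0.229 for each).

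Atf4 itself went from 122620 to 107260 in replicate 1 and from 116200 to 97872 in replicate 2. Its mean log2 ratio of -0.22 ± 0.11 (SE, n = 2) was not called (limma adjusted p = 0.183), a second probe gave -0.07, and median centering turned the sign of the first to 0.07. Ddit3, which encodes the pro-apoptotic factor CHOP and is a target of ATF4, went from 4509 to 5331 and from 3842 to 4667. Its log2 ratios of 0.24 and 0.28 were close to each other, and the mean of 0.26 ± 0.11 (moderated SE, n = 2) was not called (limma adjusted p = 0.121). Its probe maps to chr10:126732518-126732821 of mm9 on the plus strand, next to that of Mars on the minus strand. Sesn2, an inhibitor of the growth kinase complex mTORC1, had log2 ratios of -0.49 and -0.05 and was not called (limma adjusted p = 0.181). The difference between Ddit3 and the regulators that fell was not tested.

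Of the 20 cytosolic synthetase genes, 1 rose, 0 fell and 19 were not called, or 5.0% called against 23.9% of all genes tested. The median log2 ratio was 0.13, with 0.09 on replicate 1 and 0.15 on replicate 2, and the means ran from -0.11 for Gars to 0.46 for Vars. Of the 20 genes 16 had a mean above 0, but in 7 of the 20 the arrays had opposite signs. Vars, the valine enzyme, was the called gene. It went from 2935.5 to 4494 in replicate 1 and from 2721 to 3362 in replicate 2, a mean log2 ratio of 0.46 ± 0.12 (SE, n = 2, 1.38-fold, limma adjusted p = 0.0279), at a probe at chr17:35152339-35152398 of mm9. The call was lost with the processed signals (limma adjusted p = 0.098), with median centering (adjusted p = 0.33) and in the score table (adjusted p = 0.229), although the ratio stayed between 0.37 and 0.53.

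The cytosolic enzymes next in size were those for cysteine (Cars, 0.32), tyrosine (Yars, 0.29) and lysine (Kars, 0.26), followed by Eprs, whose product charges both glutamate and proline, at 0.25. Cars had log2 ratios of 0.07 and 0.57 on the arrays, whereas Kars had 0.19 and 0.33. Aars, the alanine enzyme, differed most between the arrays of all 48 genes, with -0.27 on replicate 1 and 0.37 on replicate 2, and its second, much dimmer probe had 0.37 and 0.14. The subunits of the phenylalanine enzyme were close to each other, with 0.07 for Farsa and 0.05 for Farsb. Sars had 0.05, Rars -0.02, Wars -0.09 and Dars -0.10.

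The cytosolic enzymes were also divided by whether they are well known as ATF4 targets. The 13 targets (Aars, Cars, Eprs, Gars, Iars, Lars, Mars, Nars, Sars, Tars, Vars, Wars and Yars) had a median log2 ratio of 0.16, and 1 of them, Vars, rose. The other 7 (Dars, Farsa, Farsb, Hars, Kars, Qars and Rars) had a median of 0.07, and 0 were called. The difference between these medians was not tested. Over all genes tested 9.13% rose and 23.9% were called in either direction. The summed normalized intensity of the 13 targets went from 267000 to 265070 in replicate 1 and from 225370 to 258110 in replicate 2, slightly lower with BIO on one array and higher on the other. The multisynthetase complex, a particle in which several cytosolic enzymes are held together by scaffold proteins, is encoded by 8 of these enzyme genes and by Aimp1, Aimp2 and Eef1e1. Of its 11 genes only the scaffold gene Eef1e1 was called, with a log2 ratio of 0.41 (limma adjusted p = 0.0295), and Aimp1 had 0.19 and Aimp2 0.15.

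At an unadjusted limma p under 0.05, 3 cytosolic genes (Vars, Yars and Kars) would have been called, all with higher ratios, where 36.7% of all genes tested would have been.

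Of the 17 mitochondrial synthetase genes, 0 rose, 1 fell and 16 were not called, or 5.88% called against the same 23.9%. The median log2 ratio was 0.11, with 0.07 on replicate 1 and 0.21 on replicate 2, and 11 of the 17 means were above 0. The gene that fell was Mars2, which encodes the methionine enzyme of mitochondria and was dim on these arrays. It went from 456 to 297 in replicate 1 and from 404 to 289.6 in replicate 2, with BIO below control on each array. The mean log2 ratio was -0.55 ± 0.11 (SE, n = 2, limma adjusted p = 0.00921), or 0.683-fold of the control, and the probe lies at chr1:55295642-55295701 of mm9. With the processed signals the ratio was -0.58 and the adjusted p was 0.0526.

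Among the highest mitochondrial genes were Pars2 (0.34, limma adjusted p = 0.0562), Wars2 (0.33), Yars2 (0.30) and Sars2 (0.30), none of which was called although all 4 had an unadjusted limma p under 0.05, and each was higher with BIO on both arrays. Yars2 was the most even of these 4, with 0.33 on replicate 1 and 0.27 on replicate 2. Nars2 and Ears2 had 0.25 and 0.24. Below 0 were, besides Mars2, Aars2 with -0.10, Tars2 with -0.10, Fars2 with -0.05, Iars2 with -0.03 and Rars2 with -0.02. Over all 35 synthetase genes that were not called, the limma 95% intervals reached from -0.37 at the lowest bound (Gars) to 0.64 at the highest (Cars), and 28 of the 35 intervals included 0.

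Whether cytosolic and mitochondrial enzymes responded alike was examined in the 14 amino acids with a gene for each compartment. The difference of log2 ratios, cytosolic minus mitochondrial, had a median of 0.02, with 0.00 on replicate 1 and -0.02 on replicate 2. The cytosolic enzyme was the higher one on both arrays for 4 amino acids (methionine, isoleucine, threonine and leucine), the mitochondrial enzyme for 4 (among them tryptophan, serine and asparagine), and in 6 the sign differed between the arrays. The largest gap was that of methionine, where Mars had a mean of 0.19 and Mars2 one of -0.55, a difference of 0.85 on replicate 1 and 0.62 on replicate 2. For tryptophan the gap ran the other way, with Wars at -0.09 and Wars2 at 0.33, a difference of -0.31 on replicate 1 and -0.54 on replicate 2. These differences are descriptions without a test. Between the group medians the difference was 0.02, and it was -0.06 with replicate 2 alone and 0.03 with replicate 1 alone.

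**Figure D3:**
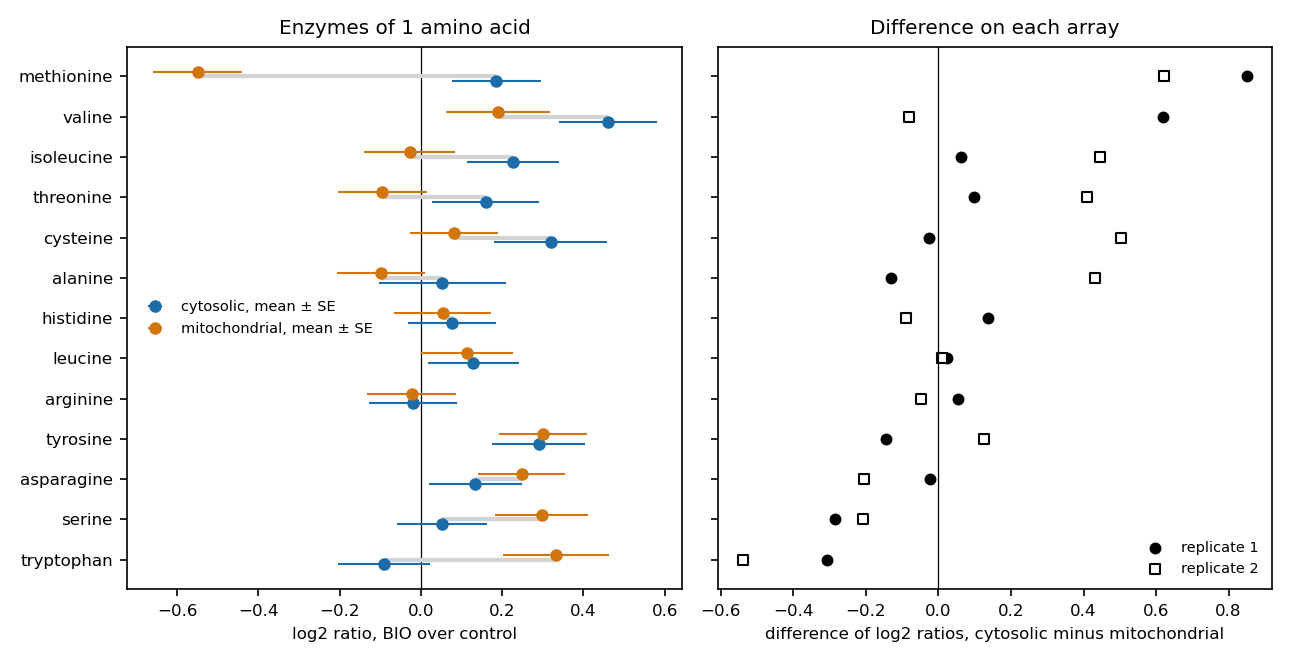
Of the 14 amino acids, 13 are shown with a synthetase gene for each compartment. Left, mean log2 ratio of BIO over control ± moderated limma SE of the cytosolic and the mitochondrial gene. Right, their difference (cytosolic minus mitochondrial) on replicate 1 (circles) and replicate 2 (squares). Methionine lies far to the right and tryptophan to the left, and 6 amino acids have 1 array on each side of 0.

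The arrays were set against each other over the 48 genes as a description of how far they went together. Pearson's r was 0.69 and Spearman's rho 0.50 across these genes, whose points all come from the same 2 arrays and RNA pools. Over all genes tested Pearson's r was 0.81. In 13 of the 48 genes the sign differed between the arrays, all of them not called. Over the whole array it differed in 5855 of the 21574 genes tested. Psat1 was the single member that lay above the 95th percentile of all genes tested on both arrays, and Chac1 and Trib3 lay below the 5th percentile on replicate 1 only.

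**Figure D4:**
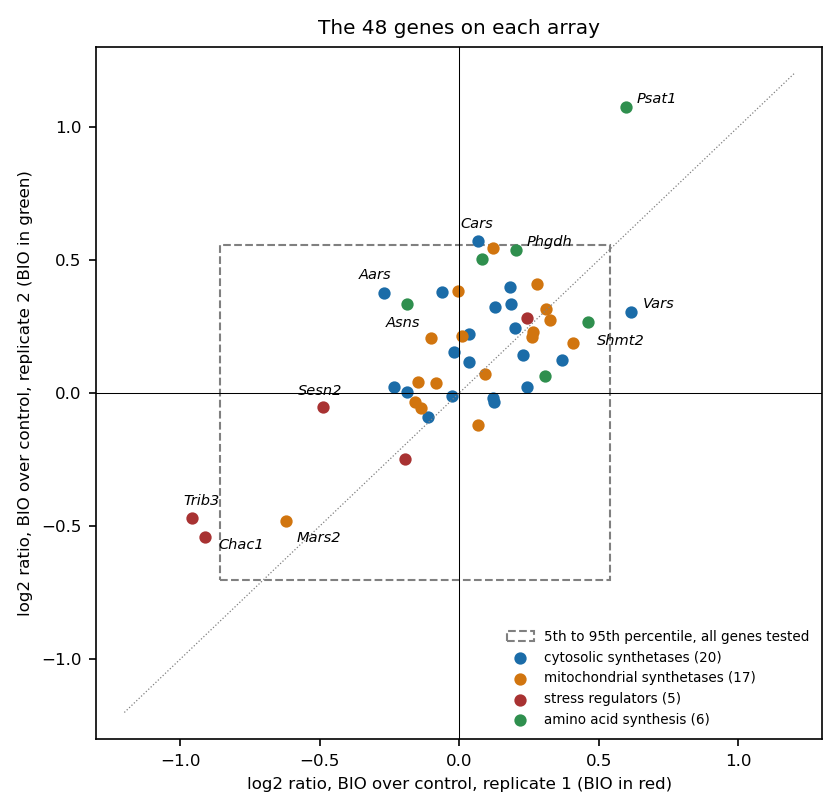
Log2 ratio of BIO over control on replicate 1 (horizontal axis) and replicate 2 (vertical axis) for the 48 genes, colored by group. The dashed box spans the 5th to 95th percentile of all genes tested on each array. Psat1 lies beyond the box on both axes, Vars beyond its right edge, and Chac1 and Trib3 beyond its left edge.

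Read against the promoter sequences shown above, the 8 genes with an ATF4 core in the window had divided values. Chac1 and Trib3 fell. Aars, Asns, Gars, Iars, Tars and Yars were not called, with mean log2 ratios from -0.11 (Gars) to 0.29 (Yars). Over all genes tested 14.8% fell and 23.9% were called, and whether genes with the core depart from these shares was not tested. All 8 had a higher ratio on replicate 2 than on replicate 1, as had 33 of the 48 genes and 12638 of the 21574 genes tested. In Aars, Asns, Gars and Tars the sign differed between the arrays. Psat1 rose and has no such core in its window. The windows of Vars and of 9 other members were not analysed here.

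Around these genes, 102 further genes were tested from lists of related pathways. The lists were translation control, ATF4 targets, amino acid transport, folate metabolism, endoplasmic reticulum stress, mitochondrial translation and cell cycle. Aimp1, Aimp2 and Eef1e1 of the multisynthetase complex were counted with them. Of the 102, 40 were called, against 23.9% of all genes tested, and the 40 include all 16 genes of the cell cycle list. Over all genes tested 9.13% rose and 14.8% fell, which are the shares to set beside the counts for each list and for the cell type markers below. Of 13 genes for eIF2α itself, its kinases and phosphatases, the GCN2 inhibitor IMPACT and the exchange factor eIF2B, 0 rose and 1 fell, namely Eif2b2 with a log2 ratio of -0.55 (limma adjusted p = 0.01). Eif2ak4, which encodes GCN2, had 0.03, Eif2ak3, which encodes PERK, had -0.07, and Ppp1r15a, which encodes the phosphatase subunit GADD34 and is itself induced in the stress response, had -0.17. The median of the list was 0.03.

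Further ATF4 targets were divided as well. Of 19 tested genes, 3 rose and 1 fell, with a median of 0.17, and Fgf21 was not tested because it was too dim. The secreted stress factor Gdf15 had a log2 ratio of 0.77 (limma adjusted p = 0.0026), the transcription factor gene Atf5 one of 0.49 (adjusted p = 0.0157) and Slc7a11, the cystine transporter, one of 0.41 (adjusted p = 0.0333). Cth, which makes cysteine by transsulfuration, fell, with a log2 ratio of -0.52 (adjusted p = 0.0162). Xpot, the exporter of tRNA from the nucleus, had 0.09.

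Among 13 amino acid transporter genes, 3 rose and 2 fell, and the median was 0.24. Slc7a3, a transporter of arginine and lysine, rose most, with a log2 ratio of 1.07 (limma adjusted p = 0.000491), and Slc7a5, which imports large neutral amino acids, rose by 0.43 (adjusted p = 0.0229). Its partner chain Slc3a2 had 0.21 and was not called. The glycine transporter gene Slc6a9 had a log2 ratio of -0.57 (adjusted p = 0.00705), and Slc38a4, which carries neutral amino acids, one of -0.50 (adjusted p = 0.0322).

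The folate and glycine pathway, which takes up the carbon that SHMT2 and MTHFD2 release, had 7 risen and 0 fallen genes of 15, with a median of 0.22. The highest was Shmt1, the cytosolic counterpart of Shmt2, with 1.16 (limma adjusted p = 0.000298). Tyms, Mthfd1l, Aldh1l2 and Mthfd2l were among the others that rose. Tyms, with 0.88 (adjusted p = 0.00116), serves DNA synthesis, and all 16 genes of the cell cycle list rose, with a median of 0.93 and a range from 0.41 to 1.25. Their summed normalized intensity went from 319760 to 515640 in replicate 1 and from 291410 to 499780 in replicate 2, and the part of cell division in the ratios of Psat1 and of the folate genes was not tested.

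Of 13 genes for chaperones of the endoplasmic reticulum and the other arms of its stress response, 0 rose and 6 fell, with a median of -0.19. These were Calr with -0.71 (limma adjusted p = 0.00284), Hspa5 with -0.58 (adjusted p = 0.00675), Hsp90b1, Sdf2l1, Dnajb9 and Dnajc3, of which the last had -0.45. The sensor genes Atf6, with -0.19, and Ern1, with 0.15, were not called. The sums were 406970 and 300630 in replicate 1 and 347900 and 264190 in replicate 2, lower with BIO on each array as were Chac1 and Trib3. In the 12 other genes of mitochondrial translation, 0 rose and 1 fell. This was Qrsl1, a subunit of the enzyme that makes glutaminyl-tRNA in mitochondria, with -0.50 (limma adjusted p = 0.0146), while its partners Gatb and Gatc had 0.12 and 0.14.

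**Figure D5:**
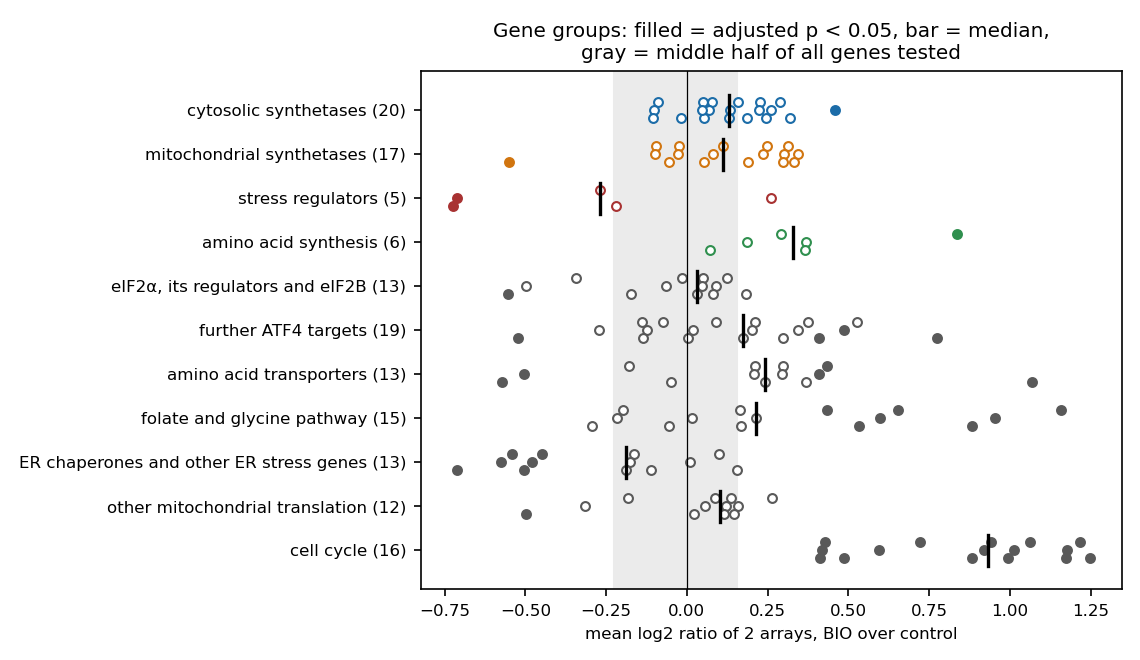
Mean log2 ratio of BIO over control of each tested gene in the 4 groups of members and in 7 lists of related genes, with the number of genes in parentheses. Filled points had an adjusted p under 0.05, the black bar is the median, and the gray band holds the middle of the distribution of all genes tested, between the quartiles. The synthetases lie close to 0, all 16 cell cycle genes lie to the right, and 6 genes of endoplasmic reticulum stress lie to the left.

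Markers of cell types moved with BIO over the same arrays. All 8 markers of endothelium fell, with a median log2 ratio of -2.10, and their summed normalized intensity went from 73695 to 11904 in replicate 1 and from 69374 to 19028 in replicate 2. Of 10 epithelial markers 5 fell (sums of 231260 and 123420, and 189660 and 122650), and of 10 mesenchymal markers 6 fell (801960 and 496030, and 736570 and 447880). In the epithelium Krt8, Krt18, Krt19, Cdh1 and Upk3a fell, while Epcam, Trp63, Grhl2, Cldn4 and Upk1a were not called. In the mesenchyme Tbx18, Foxf1, Ptch1 and Tcf21 were not called. In macrophages 5 of 7 fell, in erythroid cells 3 of 6, in nerve 3 of 5 and in kidney mesenchyme and nephron 1 of 7, where 1 rose. Normalized intensities lie above 0 after the correction, so a sum of 0 was not possible. The sums therefore do not show whether a cell type was still present, and each follows mostly the brightest genes of its list. The part of these cell types in the ratios of Chac1, Trib3 and Mars2 was not tested.

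By the rule that the study used for its other arrays, which asks each array for an intensity of 100 or more and a 2-fold ratio, with the arrays going the same way, 0 of the 48 genes were higher and 0 were lower. On the whole array 1.04% of the genes tested were higher and 2.04% lower by this rule. At 1.5-fold Psat1 was the only member that passed, and at 3-fold none did.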

How the data were processed

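Total RNA of 2 control and 2 BIO pools was hybridised to 2 Agilent arrays with exchanged dyes. Per the submitters' processing notes, the authors quantified them with Agilent Feature Extraction 10.7.3.1. The scanner tables deposited by the authors hold the mean intensity and local background intensity of each spot without normalization, and processed signal intensities that the software had background-corrected and dye-normalized. The methods name a smaller array format than the file headers, which show 4 spots for each probe of 60 bases. The authors also deposited a table with 1 score per probe and array. How it was made is not given in the sources used here. Set against the scanner values it behaves as a rounded fold change, BIO over control, with a minus sign where the control is higher, and its centering is unknown. It served as an alternative only, and 0 columns of per-sample values were left unused.

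In R 4.3.3 with limma 3.58.1, mean intensities were corrected with normexp (offset 50) and normalized by loess within each array. Control spots and outlier spots, 3.49% and 3.16% of the biological spots, had weight 0 and were then dropped, and spots of a probe were averaged. The normalized intensity of a channel is its value after these steps. Levels may be compared for 1 probe between the channels of an array, but not between probes. The arrays were not scaled to each other, so levels are not compared between them. The offset pulls ratios of dim probes toward 0. Probes marked well above background for control RNA on both arrays, or for BIO RNA on both (28824), were tested with lmFit and eBayes against 0, two-sided, with Benjamini-Hochberg adjustment over all of them at 0.05. The methods state no test for these arrays. No dye term was fitted, since no degree of freedom would remain for the error, and the number of arrays limits the precision. A gene was its brightest probe. The fit was tested on simulated data.

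Names came from RefSeq genes (GRCm38.p6), where 28328 probes matched by accession, 3400 by symbol and 243 by synonym. The other 7458 stayed under the name given in the files. Probe coordinates are those of mm9 in the files and were not converted. Full values are given for members past the threshold and for Atf4, Ddit3, Asns, Trib3 and Chac1. Phgdh, Shmt2 and the others named were chosen after their values were seen. From each list up to 2 risen and 2 fallen genes were to be named, with some others added for their role. The members and lists were chosen with earlier results of these data known.

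The alternatives were the processed signals, median centering in place of loess, an offset of 16, no filter on dim probes, the mean of all probes of a gene, the score table and each array alone. The protein sequences of the enzyme pairs were not analysed here, and the values of a few genes are not reported here.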

Additional observations from a re-analysis of the deposited data

How the results depend on the processing

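With the processed signals 1 member had risen and 0 had fallen (against 2 and 3), among them 0 risen cytosolic and 0 fallen mitochondrial synthetases and 0 fallen stress or amino acid genes, the median of the cytosolic synthetases was 0.17 in place of 0.13, and 16 of the related pathway genes were called in place of 40. With median centering 1 member and 0 cytosolic synthetases had risen, and 22 related pathway genes were called. With the mean of all probes 4 members had risen, 3 of them among the stress and amino acid genes, since Phgdh and Shmt2 were called. Shmt2 has only 1 probe and kept its ratio there, so its call came from the refit over genes. The offset of 16 and the absence of a filter on dim probes changed no call among the 48 genes. In the score table Mars2 alone of the 5 called genes kept its call and 6 others, among them Cars2, Kars, Lars, Pars2 and Qars, were called. Because its scores are rounded, a gene can have the same score on both arrays and thus no spread between them. Lars, with log2 ratios of 0.03 and 0.22 in the main fit, was called there at 0.14. How far the calls in the score table rest on rounding was not tested, so they are not a check of the other fits. Over all genes that table had 1929 risen and 1319 fallen, against 1970 and 3184. None of the 5 called genes turned its direction under these alternatives or on either array alone. With both arrays, the sign of Atf4, Cars2 and Gars turned with median centering, that of Iars2 with the mean of all probes and that of Rars with the processed signals, none of them called in either of the fits compared. On the arrays alone, 13 of the 48 members had opposite signs, as had 5855 of the 21574 genes tested. The difference between cytosolic and mitochondrial medians ranged from -0.0572 to 0.0271 with 1 array left out, and by the fold rule 0 to 1 members were higher with 1 array left out and 1 at 1.5-fold. The cause of these shifts was not tested. A single array allows no test. No paired analysis was possible because the labels give 1 group of arrays, in which each array already sets BIO against its control.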
